A study of Mus musculus with 6 samples.

Results

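V(D)J recombination and end joining genes were followed here as a set of 10 named genes, taken from the 22298 genes of each deposited table by symbol. The set holds the recombinase genes Rag1 and Rag2, the polymerase gene Dntt, the nuclease gene Dclre1c (Artemis), the Ku genes Xrcc5 (Ku80) and Xrcc6 (Ku70), the ligation genes Xrcc4 and Lig4, and the kinase genes Atm and Prkdc (DNA-PKcs). All 10 were found once in every table, and all 10 passed the filter on low counts that left 13934 genes for testing. RNA sequencing of thymocytes from untreated C57BL/6 mice compared 3 Toxf/f libraries, the controls, with 3 Toxf/fCd4Cre libraries. Replicate 1 of each genotype was 4 weeks old, and the other replicates were 3 weeks old. Both genotypes carry the loxP-flanked Tox alleles, and the Cd4Cre mice also carry Cre recombinase under Cd4 regulatory sequences, which act from about the double-positive stage of thymocyte development. Cd4Cre without loxP-flanked Tox was not among the groups, so Tox loss and the presence of Cre cannot be told apart.

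V(D)J recombination assembles T cell receptor and antibody genes from gene segments in developing lymphocytes. RAG1 and RAG2 cut DNA beside the segments, and the coding ends are left as closed hairpins. Ku binds the ends and recruits DNA-PKcs, Artemis opens the hairpins, terminal transferase (the product of Dntt) adds untemplated nucleotides, and XRCC4 with DNA ligase IV seals the joint. ATM senses the break and stabilises the ends until they are joined. In the thymus, beta, gamma and delta chain genes are rearranged in double-negative (DN) cells and the alpha chain gene in double-positive (DP) cells. The lymphocyte-restricted genes of the set are Rag1, Rag2 and Dntt, while the repair genes act in most cell types.

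Stretches before the start sites are printed as a description of the genes, and the first 3 are given because Rag1, Rag2 and Dntt were abundant yet showed no detectable genotype difference. The 250 bases before the RefSeq start are printed 5′ to 3′ on the gene's strand in build GRCm38.p6, with each CANNTG motif (the E-box, which reads the same on both strands) in capitals. They lie at chr2:101649533-101649782 (minus strand, Rag1), chr2:101624462-101624711 (plus strand, Rag2) and chr19:41029025-41029274 (plus strand, Dntt). One of the 2 Lig4 starts, at chr8:9976312-9976561 (minus strand), is shown as an example of a repair gene.
Rag1: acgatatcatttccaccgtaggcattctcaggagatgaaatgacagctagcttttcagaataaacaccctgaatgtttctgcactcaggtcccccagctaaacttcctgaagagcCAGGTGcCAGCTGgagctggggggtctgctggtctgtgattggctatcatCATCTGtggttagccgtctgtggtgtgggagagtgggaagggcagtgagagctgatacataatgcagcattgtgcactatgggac
Rag2: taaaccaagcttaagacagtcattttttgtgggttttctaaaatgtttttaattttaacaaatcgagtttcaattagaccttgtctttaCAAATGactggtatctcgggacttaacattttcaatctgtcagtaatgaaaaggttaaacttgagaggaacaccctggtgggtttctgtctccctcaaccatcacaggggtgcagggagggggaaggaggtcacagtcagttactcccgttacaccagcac
Dntt: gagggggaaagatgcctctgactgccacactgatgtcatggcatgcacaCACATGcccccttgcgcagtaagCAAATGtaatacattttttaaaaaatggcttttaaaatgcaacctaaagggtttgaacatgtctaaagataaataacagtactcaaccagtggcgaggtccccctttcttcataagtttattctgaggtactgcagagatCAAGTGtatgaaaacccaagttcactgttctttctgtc
Lig4: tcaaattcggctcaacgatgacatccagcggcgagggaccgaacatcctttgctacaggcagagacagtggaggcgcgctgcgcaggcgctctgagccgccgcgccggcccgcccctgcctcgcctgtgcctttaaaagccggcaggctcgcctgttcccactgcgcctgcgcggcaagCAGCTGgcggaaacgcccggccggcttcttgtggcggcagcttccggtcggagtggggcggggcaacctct
E-boxes numbered 3 in the Rag1 window, 1 in Rag2, 3 in Dntt and 1 in the Lig4 window shown. The windows of Dclre1c and Xrcc5 held 2 each, that of Xrcc6 held 1 and those of Xrcc4 and Atm held 0, so the counts of the recombinase and repair genes overlapped. Of 32851 windows of this length, 66.2% held at least 1 CANNTG and 12.2% held at least 3. The motif TGTGGT, searched on both strands, occurred 2 times in the Rag1 window and in no other window of the set, and 14.0% of all windows held it. The windows of Rag1, Rag2 and Dntt held 3, 3 and 2 CpG dinucleotides, against a median of 6 over all windows (quartiles 2 and 16). Windows of Xrcc6, Xrcc4 and Atm held 25, 26 and 24, the Lig4 window shown held 28, and those of Xrcc5 and Dclre1c held 5 and 8. Annotated exons reached into some of these windows. The longest overlap with an exon was 250 bases for Xrcc6 (exons of Desi1 and Xrcc6), 175 for Xrcc4 (Tmem167) and 69 for Atm (Atm). The printed windows held no annotated exon. A window was found for 9 of the 10 genes, all but Prkdc. These matches describe the letters only, and no difference between classes of genes was tested.

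Library totals ran from 14550593 to 16099023 estimated counts, of which the 10 genes took 0.776% to 0.834%. Tox (ENSMUSG00000041272), the targeted gene, had 1452 to 1693 counts in the controls and 147 to 242 in the Cd4Cre libraries. Titles call the cells DN thymocytes, and a sort of DN2 cells is named in the protocols. The DN2 markers Kit and Cd44 stood at 20.4 ± 2.49 and 42.7 ± 7.40 CPM (counts scaled to library size, SD, n = 3) in the controls. Il2ra, here on the list of DN3 markers, stood at 96.4 ± 6.21 CPM and the DP marker Cd8a at 1712 ± 49.3 CPM. CPM is not scaled to transcript length, so levels of different genes are only roughly comparable on it. In bulk RNA, fewer cells of a type and less RNA per cell cannot be told apart. The labels do not say that each replicate is a separate mouse, so p-values measure the spread between these libraries, which may be technical.

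Levels of different genes were compared per length, as deposited FPKM (fragments per kilobase of transcript, scaled to library size). In the controls Dntt and Rag1 were highest, at 861 ± 36.1 and 749 ± 26.6 FPKM, followed by Xrcc6 at 254 ± 12.9 and Rag2 at 153 ± 12 FPKM (SD, n = 3). Lig4, Xrcc5, Xrcc4 and Dclre1c followed at 34.3 ± 2.59, 27.0 ± 1.04, 18.4 ± 1.53 and 15.9 ± 1.66 FPKM. The kinase genes were lowest, Atm at 9.31 ± 0.22 and Prkdc at 6.29 ± 0.32 FPKM, so the set spanned a 136.8-fold range. Among all 22298 genes, Rag1 ranked between 79 and 100 and Dntt between 79 and 87 in the 6 libraries, while Prkdc ranked between 8094 and 8744. Dntt lay above Rag1 in every control, and Lig4 above Xrcc5. In the Cd4Cre libraries the ranges of these 2 pairs overlapped (780 to 911 against 756 to 847 FPKM, and 24.9 to 37.7 against 24.7 to 30.5 FPKM). Xrcc4 and Dclre1c overlapped in both genotypes, and Atm lay above Prkdc in both without overlap.

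**Figure D1:**
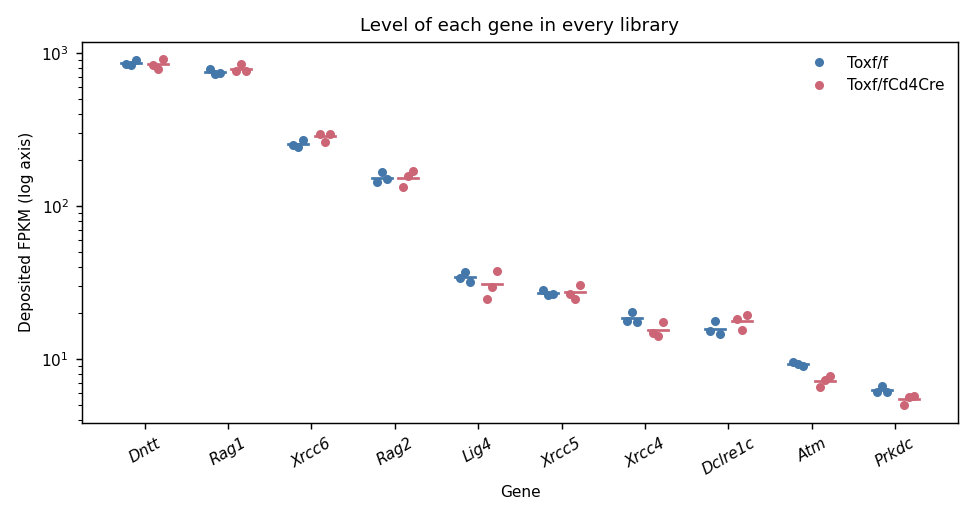
Deposited FPKM (log axis) of the 10 genes in each of the 6 libraries, ordered by the control mean, with points for libraries and lines for group means. Dntt and Rag1 lie highest in both genotypes, and Atm and Prkdc lie lowest.

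The genotype comparison asks whether transcripts of the recombination machinery differ between Toxf/fCd4Cre and Toxf/f libraries. Of the 10 genes, only Atm passed the test, lower in the Cd4Cre libraries at 78.5% of the control level, and 9 did not pass. The recombinase genes Rag1 and Rag2 and the polymerase gene Dntt had log2 fold changes of 0.09, 0.01 and -0.02. The test was the edgeR quasi-likelihood test with Benjamini-Hochberg adjustment over 13934 genes at 0.05, and differences are Cd4Cre minus control. Over all genes 572 passed (4.11%), with 412 lower (2.96%) and 160 higher (1.15%). The 1 of 10 in the set is too few to set apart from that share. The median log2 fold change was -0.01 over the 10 genes and 0.01 over all tested genes, and 5 of the 10 were negative against 47.6% of all genes. The count over all genes was 309, 298 and 414 without control replicates 1, 2 and 3, and 330, 593 and 1269 without Cd4Cre replicates 1, 2 and 3. Atm was called in 2 of these 6 omissions, those of Cd4Cre replicates 2 and 3.

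**Figure D2:**
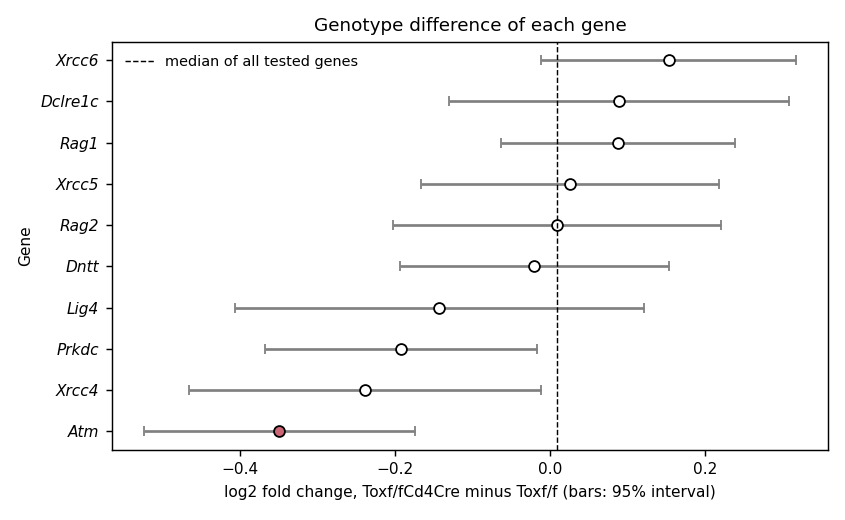
Log2 fold change (Toxf/fCd4Cre minus Toxf/f) of each gene on the x axis with its 95% interval from the edgeR fit, filled where the adjusted p was under 0.05 and open otherwise. Atm at -0.35 is the 1 filled point, and the intervals of Atm, Xrcc4 and Prkdc do not reach 0.

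Rag1 (ENSMUSG00000061311), which encodes the catalytic subunit of the recombinase, was at 5096, 4809 and 4891 CPM in control replicates 1 to 3, against 5050.5, 5613 and 5067 in Cd4Cre replicates 1 to 3. The groups overlapped, with Cd4Cre replicate 2 the highest library. The log2 fold change was 0.09 (95% interval -0.06 to 0.24, edgeR adjusted p = 0.574), an interval that covers changes from -4.26% to 18.1%. Rag2 (ENSMUSG00000032864), whose product is the regulatory partner of RAG1, was at 301, 351 and 324 CPM in the controls, against 284, 334 and 365 in Cd4Cre. Its lowest and highest libraries were both Cd4Cre libraries. The log2 fold change of Rag2 was 0.01 (-0.20 to 0.22, edgeR adjusted p = 0.978). Dntt (ENSMUSG00000025014) was at 1640, 1634 and 1788 CPM in the controls, against 1638, 1539 and 1816 in Cd4Cre, with a log2 fold change of -0.02 (-0.19 to 0.15, edgeR adjusted p = 0.932). Replicate 3 was the highest library for Dntt in each genotype. No genotype difference was detectable for these 3 genes, and the intervals leave room for changes of up to 18.1% in Rag1, 16.5% in Rag2 and -12.5% in Dntt.

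Dclre1c (ENSMUSG00000026648), the hairpin-opening nuclease gene, was at 48.2, 55.0 and 44.5 CPM in the controls, against 51.5, 47.6 and 58.2 in Cd4Cre. The groups overlapped, and the log2 fold change was 0.09 (95% interval -0.13 to 0.31, edgeR adjusted p = 0.712). The deposited FPKM of Dclre1c did not track its counts as closely as for other genes of the set. FPKM per count, relative to the median gene of a library, varied by 0.17 (log2) across the libraries for Dclre1c, by 0.06 to 0.07 for Xrcc6, Xrcc4 and Lig4, and by under 0.02 for the other 6. The Ku genes differ in level, and their products act as a heterodimer. Xrcc5 (ENSMUSG00000026187) was at 71.1, 66.4 and 68.4 CPM in the controls, against 67.8, 63.1 and 78.9 in Cd4Cre, where both extremes fell. Its log2 fold change was 0.03 (-0.17 to 0.22, edgeR adjusted p = 0.916). Xrcc6 (ENSMUSG00000022471) was at 456, 453 and 509 CPM in the controls, against 541, 498 and 539 in Cd4Cre. Only control replicate 3 reached into the Cd4Cre range, and the log2 fold change of Xrcc6 was 0.15 (-0.01 to 0.32, edgeR adjusted p = 0.347).

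The ligation genes had negative log2 fold changes that did not pass the test. Xrcc4 (ENSMUSG00000021615), the scaffold of the ligase, was at 27.0, 29.8 and 27.1 CPM in the controls, against 22.7, 21.8 and 26.7 in Cd4Cre. All 3 Cd4Cre libraries lay below the controls, replicate 3 only just, and on the FPKM scale the groups overlapped. The log2 fold change of Xrcc4 was -0.24 (95% interval -0.47 to -0.01, unadjusted p = 0.041, edgeR adjusted p = 0.281). Lig4 (ENSMUSG00000049717) was at 126, 137 and 118 CPM in the controls, against 94.0, 112 and 139 in Cd4Cre. Cd4Cre replicate 1 was the lowest and Cd4Cre replicate 3 the highest of the 6. The log2 fold change of Lig4 was -0.14 (-0.41 to 0.12, edgeR adjusted p = 0.61), and its coefficient of variation was 19.7% in Cd4Cre against 7.5% in the controls. Without Cd4Cre replicate 3 it was -0.30 (edgeR adjusted p = 0.0528), and without Cd4Cre replicate 1 -0.01.

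Atm (ENSMUSG00000034218), the kinase gene of the break response, was at 92.4, 90.5 and 89.7 CPM in the controls, against 64.3, 72.0 and 77.9 in Cd4Cre. The groups did not overlap, the controls lay within a coefficient of variation of 1.51%, and the Cd4Cre libraries spread over 9.52%. Control and Cd4Cre means were 90.9 ± 1.37 and 71.4 ± 6.80 CPM (SD, n = 3). Atm thus fell by 0.35 on the log2 scale (SE 0.08, 95% interval -0.52 to -0.17, edgeR adjusted p = 0.0294). Of all tested genes, 10.7% had a lower value. Prkdc (ENSMUSG00000022672), which encodes the catalytic subunit of DNA-dependent protein kinase, was at 76.4, 83.7 and 77.9 CPM in the controls, against 62.9, 71.5 and 74.0 in Cd4Cre. Its groups did not overlap either, and its log2 fold change was -0.19 (-0.37 to -0.02, unadjusted p = 0.0344, edgeR adjusted p = 0.258). Thus 3 of the 10 genes (Atm, Prkdc and Xrcc4) had every Cd4Cre library below every control, against 10.6% of all tested genes. No gene of the set had all Cd4Cre libraries above the controls, which 11.3% of all genes did, and 22.0% of all genes had no overlap in either direction. The exact two-sided permutation test on log2 CPM gave p = 0.1 for each of the 3, the smallest that 3 against 3 libraries allow. Unadjusted p was under 0.05 for the same 3 genes, against 9.00% of all genes with such a p and a lower value in Cd4Cre. In the 4-week pair alone the log2 CPM difference was -0.52 for Atm and -0.28 for Prkdc, and in the 3-week libraries alone the log2 fold changes were -0.27 (edgeR adjusted p = 0.494) and -0.15.

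The call of Atm was lost in 9 of 18 alternative analyses, although its log2 fold change stayed between -0.44 and -0.21 in all 18. It ended without any 1 of the controls (edgeR adjusted p = 0.142, 0.104 and 0.0939 without replicates 1, 2 and 3) and without Cd4Cre replicate 1 (adjusted p = 0.14). On deposited FPKM the log2 fold change was -0.33 (limma, pseudocount 1, adjusted p = 0.133). Markers of other cells moved with the genotype as well, where 2.96% of all genes were lower and 1.15% higher. Among 8 mature T cell markers 6 fell and none rose, and their summed level was 578 to 638 CPM in the controls and 347 to 393 CPM in Cd4Cre. The summed level of 6 gamma-delta T cell markers was 219 to 244 and 412 to 465 CPM, with 5 higher, while no marker of either list was at 0 in a group. Summed levels of the 9 DP stage markers were 5707 to 5773 CPM in the controls and 6313 to 6429 CPM in Cd4Cre, with 1 higher. The 7 DN3 stage markers include Rag1 of the set, which made up most of their summed levels. These were 5280 to 5594 and 5608 to 6230 CPM, with 2 higher. Those of 8 thymic epithelium markers were 901 to 1005 and 1151 to 1253 CPM, with 4 higher and 1 lower. Those of 8 myeloid and dendritic cell markers were 451 to 511 and 249 to 275 CPM, with 1 lower. Log2 fold changes of these 8 were negative for 5 and positive for 3, with a median of -0.25. Among 6 natural killer cell markers, 5 were tested and 3 were higher, at sums of 13.8 to 16.8 and 29.0 to 40.9 CPM. The 9 early progenitor markers summed to 103 to 121 and 82.2 to 94.7 CPM, with 1 lower. The part of these cell types in the Atm result was not tested. Among 10 proliferation genes none passed, with a median log2 fold change of -0.01.

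**Figure D3:**
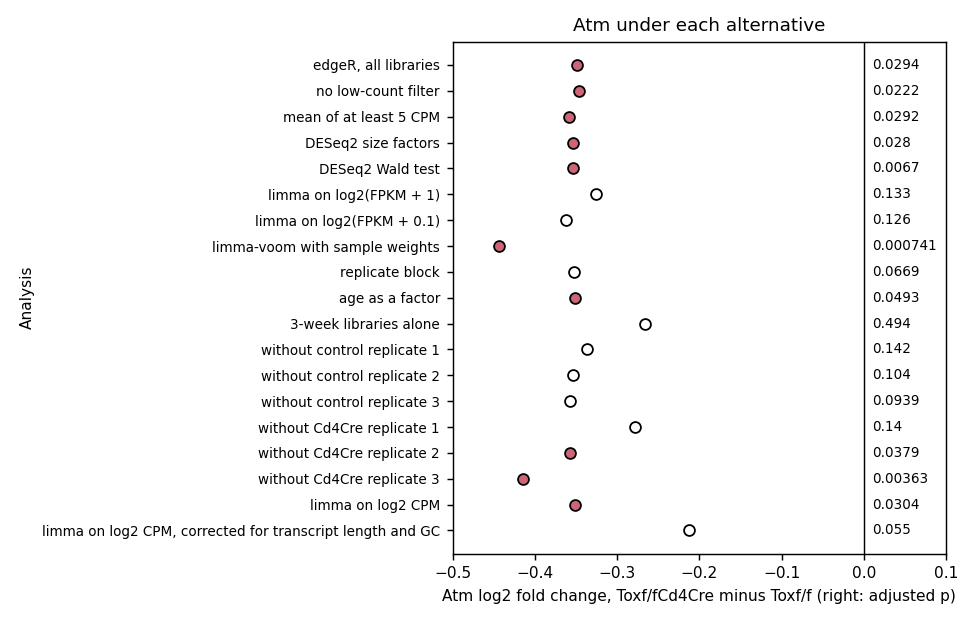
Log2 fold change of Atm (x axis, Toxf/fCd4Cre minus Toxf/f) under each analysis, filled where the adjusted p printed at the right was under 0.05. Every value is negative, from -0.44 with sample weights to -0.21 after the correction for transcript length and GC, and 10 of the 19 points are filled.

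Atm and Prkdc have the longest transcripts of the set, at 9819 and 12647 bases in GENCODE M21, and the class of long transcripts had a negative median. The median log2 fold change was -0.09 over 831 tested genes with a longest transcript of at least 8000 bases, 70.3% of which were negative. It was 0.04 over 2250 genes of 1000 to 2000 bases, of which 39.5% were negative. Of the 831 long genes, 14.9% lay below Atm and 28.5% below Prkdc. The median deviation of the long genes was 0.04, 0.06 and 0.05 (log2) in control replicates 1 to 3 and -0.09, 0.03 and -0.08 in Cd4Cre replicates 1 to 3. After each library was corrected for transcript length and GC content, a step chosen after seeing the data, the log2 fold change was -0.21 for Atm (limma adjusted p = 0.055) and -0.03 for Prkdc (limma adjusted p = 0.812). The same limma fit without the correction gave -0.35 (adjusted p = 0.0304) and -0.19 (adjusted p = 0.26). Dclre1c, with a transcript of 7075 bases, moved from 0.09 to 0.23 (adjusted p = 0.111) by the same step. The part of transcript length or RNA quality in the Atm result was not tested beyond these values.

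**Figure D4:**
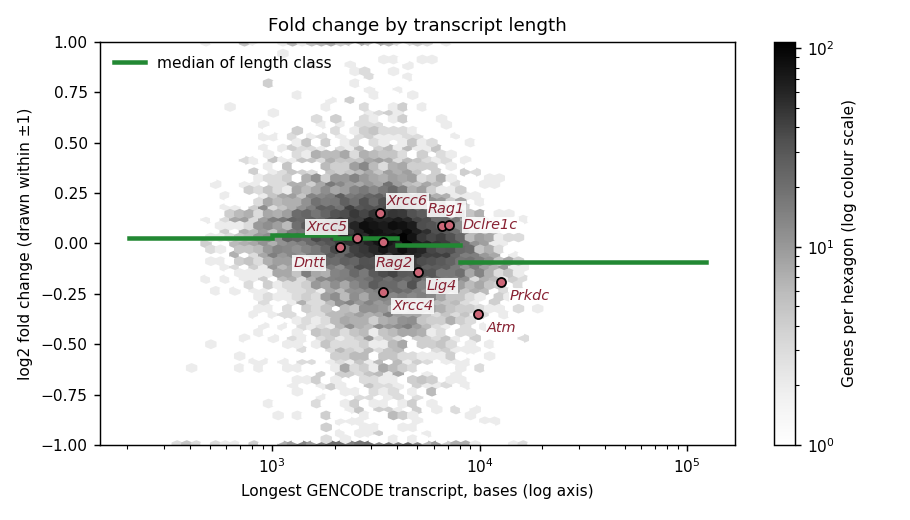
Log2 fold change of the tested genes (y axis, values beyond ±1 drawn at the edge) against the length of the longest transcript (log axis), with grey hexagons for gene density, green lines for the median of each length class, and red points for the 10 genes. The green line falls to -0.09 in the class of at least 8000 bases, where Atm and Prkdc lie.

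Subunits that work as pairs were compared as ratios of FPKM within a library. The Rag1 to Rag2 ratio was 5.45, 4.40 and 4.89 in the controls and 5.75, 5.40 and 4.50 in Cd4Cre. The Xrcc6 to Xrcc5 ratio was 8.93, 9.26 and 10.1 in the controls and 11.1, 10.7 and 9.64 in Cd4Cre, with 1 control inside the Cd4Cre range. The Xrcc4 to Lig4 ratio was 0.522, 0.546 and 0.547 in the controls and 0.592, 0.476 and 0.464 in Cd4Cre, where it lay both above and below the controls. The log2 differences were 0.09, 0.15 and -0.08, with exact two-sided permutation p-values of 0.6, 0.2 and 0.4, each 0.6 after Benjamini-Hochberg adjustment over the 3 ratios. The smallest p that this exact test allows with 3 against 3 libraries is 0.1.

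Several of the genes sit beside or overlap another gene. Rag1 and Rag2 neighbour each other, and Rag2 overlaps B230118H07Rik (Iftap), Xrcc6 overlaps Desi1 and Dclre1c overlaps Suv39h2 in the RefSeq annotation. Deposited counts were not whole in 6 of 6 libraries for Rag2 and in 5 of 6 for Xrcc6, and how reads shared with such partners were counted is not given in the sources used here. Desi1 was at 362 ± 14.4 and 439 ± 50.8 CPM (n = 3), a log2 fold change of 0.28 (edgeR adjusted p = 0.13), the same sign as Xrcc6. B230118H07Rik stood at 12 ± 1.78 CPM in the controls, a small level beside that of Rag2. Npat, the histone gene regulator that neighbours Atm, was at 67.3 ± 3.66 and 62.6 ± 8.91 CPM, with a log2 fold change of -0.11 (edgeR adjusted p = 0.648). Mcm4, a replication helicase gene that neighbours Prkdc, had a log2 fold change of -0.02 (edgeR adjusted p = 0.926). Neighbours of Xrcc4 and Lig4, Tmem167 and Abhd13, had values of -0.12 and -0.13, and neither passed. Blnk, a B cell adaptor gene next to Dntt, was the 1 neighbour past the threshold, lower in Cd4Cre at 8.46 ± 1.15 against 13.6 ± 0.45 CPM (edgeR log2 fold change -0.68, adjusted p = 0.0118).

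**Figure D5:**
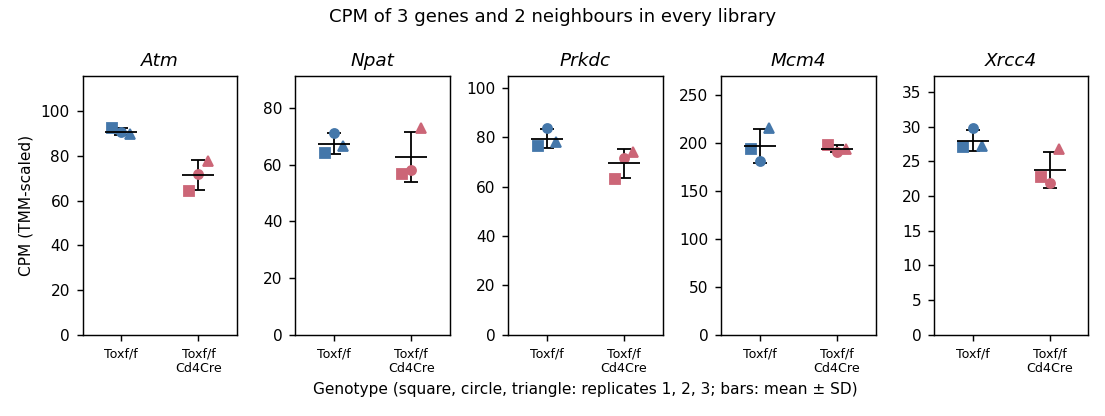
CPM of Atm, Prkdc and Xrcc4 and of the neighbours Npat and Mcm4 in each library (symbols mark replicates), with mean ± SD as bars and the y axes starting at 0. Cd4Cre libraries lie below all controls for Atm, Prkdc and Xrcc4 but overlap them for Npat and Mcm4.

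Other genes of the pathway were read from lists of the same fit. Of 13 end joining partners none passed the test, with a median log2 fold change of 0.03 and 8 positive. Those with small p-values included Polm, a polymerase of end joining related to terminal transferase (11.4 ± 1.21 to 15.5 ± 1.47 CPM, log2 fold change 0.45, edgeR adjusted p = 0.0733) and the nuclease gene Dclre1a (-0.36, adjusted p = 0.312). None of 18 genes of break signalling and end protection passed (median 0.01). H2ax, the histone variant marked at breaks, was at 230 ± 6.84 and 270 ± 16.5 CPM (0.23, edgeR adjusted p = 0.122), Mad2l2 had a value of 0.49 (adjusted p = 0.154) and Paxip1 0.17 (adjusted p = 0.252). None of 9 alternative end joining genes passed (median 0.05), among them Lig3, Parp3 and Polq with values of 0.14, -0.13 and -0.10. None of 14 homologous recombination genes passed (median -0.01), with Brca2 at -0.22, Xrcc3 at 0.22 and Xrcc2 at -0.18. None of 12 RAG cofactor and turnover genes passed (median 0.01), with Cdk2 at 0.13 and Skp2 at -0.10. The nuclear import gene Kpna2 was at 267 ± 28.7 and 348 ± 110 CPM (0.38, edgeR adjusted p = 0.293). Its Cd4Cre replicate 2 was at 474 CPM, while Cd4Cre replicates 1 and 3, at 275 and 294, lay within the control range of 239 to 296. None of 17 p53 damage response targets passed (median -0.02), with Perp at 0.24, Sesn2 at -0.32 and Ccng1 at -0.27. In the order given, 2, 3, 0, 1, 1 and 3 genes of these 6 lists had an unadjusted edgeR p under 0.05, against 16.3% of all genes. The DESeq2 Wald test called 0 in each of the 6. The limma-voom fit with sample weights called 3 end joining partners, 4 genes of break signalling and 3 p53 targets, in a fit that called 1773 of all 13934 genes. Without Cd4Cre replicate 3, edgeR called 1 end joining partner, 2 break signalling genes, 1 alternative end joining gene and 1 p53 target, and without Cd4Cre replicate 2 it called 1 p53 target. Over all genes these omissions called 1269 of 14150 and 593 of 14138. In the annotation that the authors deposited, the KEGG pathway of non-homologous end joining names 13 genes, 7 of them in the set, and none passed in edgeR, with 3 at an unadjusted p under 0.05. V(D)J recombination as a GO process names 12 genes there, 6 of them in the set. Of the 12, Atm and Lef1 were lower, against 2.96% of all genes.

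Regulators of Rag and Dntt transcription were read as a list of 28 genes. Of these, 1 was higher, 1 lower and 26 not past the threshold, with a median of -0.02. Over all genes 1.15% were higher and 2.96% lower. Lef1, an HMG-box factor, averaged 351 ± 12 CPM in controls and fell to 253 ± 36.2 in Cd4Cre (SD, n = 3, a log2 difference of -0.47, edgeR adjusted p = 0.0166). Gfi1, a zinc-finger repressor, rose from 89.7 ± 7.59 to 114 ± 3.15 CPM (0.34, edgeR adjusted p = 0.0245). Unadjusted p was under 0.05 for 9 of the 28, against 16.3% of all genes. The number called was 0 without control replicate 2, control replicate 3 or Cd4Cre replicate 1, and 1 without control replicate 1. It was 3 without Cd4Cre replicate 2 and 6 without Cd4Cre replicate 3. Over all 18 alternatives it ran from 0 to 8, the 8 from the limma-voom fit with sample weights, which called 1773 of all genes. Id3, an inhibitor of E proteins, was at 77.6 ± 1.35 and 94.0 ± 5.61 CPM (0.28, edgeR adjusted p = 0.0534). Neither Myb (0.28, edgeR adjusted p = 0.0638) nor Id2 (-0.42, adjusted p = 0.0663) passed. B lineage precursors also use the recombinase. Of their 10 listed markers 8 were tested, with 0 higher and 1 lower, 4 negative and 4 positive values and a median of -0.16. Their summed level was 96.7 to 111 CPM in the controls and 73.5 to 87.2 CPM in Cd4Cre. Il7r, on this list, is also a listed mature T cell marker. The surrogate light chain genes Vpreb1 and Igll1 were low in both genotypes. Vpreb1 was at 0.66 ± 0.25 CPM in the controls and 0.81 ± 0.61 in Cd4Cre, where the groups overlapped. Igll1, which did not pass the filter on low counts, was at 0.19, 0.14 and 0.13 CPM in the controls. In Cd4Cre it was at 1.58, 1.87 and 0.28 CPM, without overlap, but 0.28 CPM and the control values are only a few reads each. Vpreb3 was at 0.31 ± 0.27 and 1.14 ± 0.33 CPM, also without overlap (edgeR adjusted p = 0.136). Of all tested genes, 22.0% had no overlap in either direction.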

How the data were processed

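Each library has 1 deposited table of 22298 Ensembl genes, holding estimated counts and FPKM, per the file headers. The deposited estimated counts were not normalized, and 9.27% to 9.87% of them were not whole. The second deposited value is FPKM by its name in the file headers, a unit scaled to length and library size. Per the submitters' processing notes, fastp 0.18.0, HISAT2 and StringTie 1.3.1 were used. The build, annotation, counting program and strand setting were not given in the sources used here.

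Counts were rounded, filtered (filterByExpr, minimum count 10, minimum total 15) and scaled by TMM. They were tested with edgeR 4.0.16 (R 4.3.3) over all genes of all 6 libraries. On simulated data the test recovered 16.7% of 1.25-fold, 57.5% of 1.5-fold and 80.9% of 2-fold changes, and 6.87% of its calls were false. Standard errors came from the fold change and its F statistic. Alternatives used limma 3.58.1, DESeq2 1.42.0, FPKM with pseudocounts of 1 and 0.1, a replicate block, age, 3-week libraries alone and omission of each library. An unweighted limma fit on log2 CPM and the correction for transcript length and GC content (longest GENCODE M21 transcript, found for 13927 of 13934 genes) were added after seeing the data. Genes named are the 10 genes, Tox, their nearest neighbours, markers, and on each list those past the threshold and the 3 with the smallest p. Members and lists were chosen with earlier results of these data known. Sequences are from RefSeq (GRCm38.p6), cut to the 250 bases before the start. Some genes that this rule names are not reported here.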

Additional observations from a re-analysis of the deposited data

How the results depend on the processing

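Of 18 alternative analyses (16 planned, 2 added after seeing the data), all kept Atm negative and 9 kept its call. Besides the omissions of single libraries, the log2 fold change of Atm lost its call on FPKM (-0.33 with a pseudocount of 1, -0.36 with 0.1), with the replicate block (-0.35, edgeR adjusted p = 0.0669), in the 3-week libraries alone (-0.27) and after the length and GC correction (-0.21). The number of the 10 genes called was then 0 in each. The cause was not tested. The 3-week fit had fewer libraries and also left out replicate 1 of each genotype, so library number, age and replicate cannot be told apart there. Leaving out 1 library gave 0 to 1 of the 10 genes called, 298 to 1269 genes called over all and -0.41 to -0.28 for Atm. It gave -0.075 to 0.10 for Rag2, -0.087 to 0.032 for Dntt and -0.069 to 0.093 for Xrcc5, values that change sign around 0. With limma-voom sample weights, which gave Cd4Cre replicate 1 a weight of 2.28 and Cd4Cre replicate 3 one of 0.402, 5 of the 10 genes and 1773 genes over all were called. Those were Atm (-0.44), Xrcc6 (0.19), Xrcc4 (-0.28), Lig4 (-0.33) and Prkdc (-0.27), while Rag2 was -0.10 and Xrcc5 -0.015 there. Rag2 was also negative with a mean of at least 5 CPM (-0.0014) and on FPKM (-0.0099 and -0.010). In the 3-week libraries alone 151 genes passed. Rag1 and Dclre1c kept their sign and side of the threshold in all 18. The 3 ratios kept their sign in their 9 alternatives each, and their exact tests could not reach 0.05 with so few libraries. Same-numbered libraries deviated from their group means with correlations of 0.08, -0.11 and -0.04, and not every library correlated best with its own number. With 3 libraries per group and values this near 0, the correlations cannot decide whether the numbers pair the libraries. The blocked fit called 440 genes. Small changes such as those of Rag1 and Xrcc6 lie within intervals that 3 libraries per group cannot narrow.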

Other observations

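Enzymes that edit antigen receptor genes after V(D)J recombination were listed beside the recombinase. Of 9 listed, 2 were lower in the Cd4Cre libraries, against 2.96% of all genes, and 7 were not past the threshold. The median log2 fold change was -0.03. Leaving out 1 library gave 1 or 2 of the 9 genes called. Apobec1, a cytidine deaminase gene of RNA editing, fell from 24.6 ± 1.86 to 18.6 ± 0.82 CPM (log2 fold change -0.41, edgeR adjusted p = 0.0411). Ung, which removes uracil from DNA, was at 17.3 ± 1.55 and 18.5 ± 1.16 CPM and did not pass. Among 7 markers of mature B and plasma cells 5 fell, with a median log2 fold change of -2.75. Igkc, for example, fell from 63.1 ± 3.30 to 8.12 ± 0.26 CPM and Fcer2a from 9.92 ± 0.67 to 1.46 ± 0.23 CPM (edgeR adjusted p = 1.09e-08 and 7.35e-06). Their summed level, 651 to 675 CPM in the controls and 578 to 649 CPM in Cd4Cre, was mostly Ighm, which was at 534 ± 9.63 and 610 ± 41.0 CPM (edgeR adjusted p = 0.206). No marker of that list was at 0 in a group, and their part in these results was not tested. Red cell transcripts varied more between libraries than between genotypes, with a summed level of 529 to 2062 CPM in the controls and 644 to 2440 CPM in Cd4Cre.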
